A study of Mus musculus with 8 samples.

Results

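Small leucine-rich proteoglycans are secreted matrix proteins with a core of leucine-rich repeats, and 7 genes of the family were followed here across all 8 libraries of the series. The 7 are Dcn (decorin), Bgn (biglycan), Aspn (asporin), Lum (lumican), Fmod (fibromodulin), Prelp and Ogn (osteoglycin). They make up 7 of the 23389 genes listed for each library. The genes were chosen by family name, and the family was selected on its levels in MEF, ES cells and the iPS clones in earlier results of these data, so the levels below are a description and carry no test. All 7 were found, and 6 passed the filter on low values, 1 RPKM or more in 2 or more libraries. Prelp did not. Aspn, Fmod and Ogn passed through MEF alone, so they had to be lower elsewhere.

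The series measured poly-A RNA in 4 groups of 2 libraries. The 3F+IL6 group holds a pair of independently derived induced pluripotent stem (iPS) clones made from mouse embryonic fibroblasts with Oct4, Klf4 and Sox2 and treated with IL6 at 10 ng/mL. The 4F group likewise holds a pair of separately derived iPS clones, 4F being the usual name for those factors together with c-Myc. The references are biological duplicates of the embryonic stem (ES) cell line D3-GFP and of mouse embryonic fibroblasts (MEF). The clones and the MEF have the BALB/c background and the ES cells 129S2/SvPas, so strain and cell type cannot be told apart in a comparison with ES cells. The set of factors and IL6 likewise change together between the kinds of clone. Each iPS library is a single clone, and culture conditions, passage, sex and any feeder cells are not given in the sources used.

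The core proteins of the family bind fibrillar collagens and govern the width and spacing of the fibrils. Most carry chains of chondroitin, dermatan or keratan sulfate, and several bind TGF-beta and other growth factors. Connective tissue fibroblasts are a main source of them, and pluripotent cells are not known for making them. Decorin, biglycan and asporin form class I of the family, lumican, fibromodulin and Prelp belong to class II, and osteoglycin to class III.

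Several of the genes lie side by side in the mouse genome (mm10, GENCODE M21). Dcn (chromosome 10, 97479609 to 97518143, plus strand) and Lum (97565128 to 97572703) are separated by 46.98 kb and are followed by their relatives Kera and Epyc. Aspn (chromosome 13, 49544443 to 49567565) and Ogn (49608046 to 49624501) flank Omd and lie downstream of Ecm2. Prelp (chromosome 1, 133910304 to 133921414, minus strand) and Fmod (134037254 to 134048277, plus strand) are 115.8 kb apart. Bgn is on the X chromosome (73483602 to 73495933).

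RefSeq promoter windows (GRCm38.p6, the assembly of mm10) were found for 5 of the 7 genes, Dcn and Lum being the others. The 250 bases before the start are shown for Bgn, which kept 7.59% to 12.5% of its MEF level in the clones, and for Aspn, Ogn and Fmod, which were at 1.24% to 6.18%. Capitals mark matches to 3 short motifs, searched on both strands. The motif TATAAA is the core of the box bound by the TATA-binding protein. The motif TGANTCA is bound by AP-1 factors such as Fos and Jun. The motif GGGCGG is the GC box bound by Sp1.
Bgn (chrX:73483351-73483600, plus strand): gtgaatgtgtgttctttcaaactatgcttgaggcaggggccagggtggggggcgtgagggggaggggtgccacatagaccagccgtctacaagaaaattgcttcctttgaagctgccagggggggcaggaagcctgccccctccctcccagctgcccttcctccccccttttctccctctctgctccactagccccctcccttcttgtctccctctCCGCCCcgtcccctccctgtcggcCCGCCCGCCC
Aspn (chr13:49544193-49544442, plus strand): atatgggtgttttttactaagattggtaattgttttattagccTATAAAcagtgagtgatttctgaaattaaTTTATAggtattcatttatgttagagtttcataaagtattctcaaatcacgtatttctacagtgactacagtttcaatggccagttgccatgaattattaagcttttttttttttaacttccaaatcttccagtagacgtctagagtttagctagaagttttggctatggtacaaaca
Ogn (chr13:49607765-49608014, plus strand): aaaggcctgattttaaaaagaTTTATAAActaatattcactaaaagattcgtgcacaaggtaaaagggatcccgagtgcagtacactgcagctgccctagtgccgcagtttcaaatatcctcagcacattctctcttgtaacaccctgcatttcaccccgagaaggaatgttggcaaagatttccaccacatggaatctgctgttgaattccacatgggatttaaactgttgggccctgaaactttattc
Fmod (chr1:134037004-134037253, plus strand): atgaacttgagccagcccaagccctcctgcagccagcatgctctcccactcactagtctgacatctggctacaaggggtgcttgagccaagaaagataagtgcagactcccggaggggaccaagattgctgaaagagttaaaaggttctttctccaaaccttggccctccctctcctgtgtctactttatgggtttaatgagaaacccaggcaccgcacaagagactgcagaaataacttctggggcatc
The Bgn window held 3 matches to the GC box, of which 2 overlap, and 7 CG dinucleotides. The Aspn and Ogn windows held 2 matches each to the TATA box, overlapping in Ogn and far from the start in each, with 2 and 4 CG dinucleotides. The Fmod window held 0 matches and 2 CG dinucleotides. Of 32851 RefSeq windows of this length, 32.7% held the GC box, 12.4% the TATA box and 6.75% the AP-1 site, and the median was 6 CG dinucleotides. A match is a match of letters only.

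As values per gene length, the deposited RPKM allow levels to be compared between genes. Depth was estimated from the values at 11600000 to 17900000 reads per library. Per group, the summed level of 18 fibroblast markers ran from 9397 to 9422 RPKM in MEF, 285 to 287 in ES cells, 654 to 818 in 3F+IL6 clones and 552 to 648 in the 4F clones. The sum of 10 pluripotency markers ran from 5050 to 6218 RPKM in the 6 ES and iPS libraries and was 6.99 and 8.73 in MEF; no library went against its label on these markers. In bulk RNA, fewer cells of a type and less RNA per cell cannot be told apart.

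Decorin and lumican transcripts were at 71.7% to 268% of their MEF level in the 4 iPS clones, whereas fibromodulin, asporin and osteoglycin were near the lower limit of detection there. Biglycan lay between them, and Prelp was low in every library. In ES cells all 7 were at or near 0 except Bgn, at 1.19 and 1.45 RPKM.

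**Figure D1:**
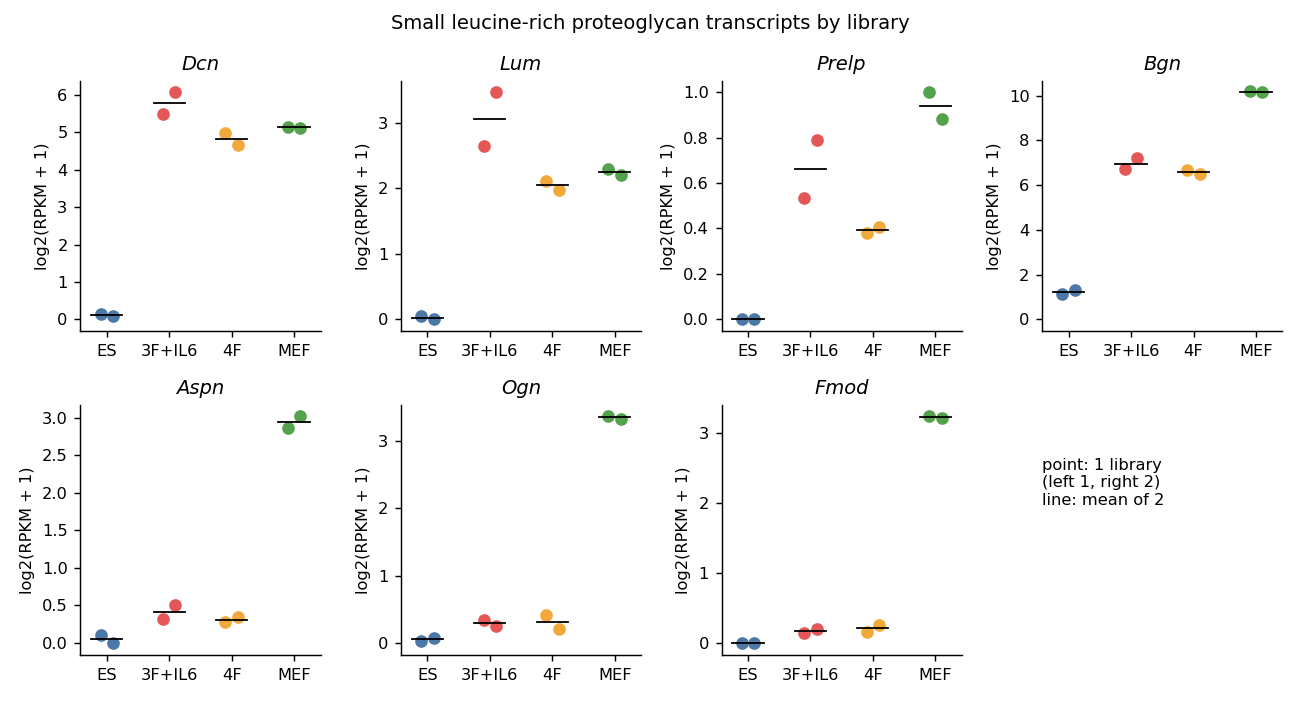
Level of each gene in log2(RPKM + 1), with 1 point per library and a line at the mean of the 2 libraries of a group. Dcn and Lum of the 3F+IL6 clones lie above both MEF libraries, while Bgn, Aspn, Ogn and Fmod of all 4 clones lie far below them and Prelp lies below them by less.

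Dcn encodes decorin, which binds collagen fibrils and sequesters TGF-beta. It was at 34.7 and 33.7 RPKM in MEF, 44.1 and 66.6 in the 3F+IL6 pair, 30.9 and 24.5 in the 4F pair, and 0.101 and 0.0707 in ES cells. The 3F+IL6 clones were above both MEF libraries and the 4F clones below both, so the groups did not overlap. As a percent of the MEF mean, 3F+IL6 clones 1 and 2 were at 129% and 195%, and 4F clones 1 and 2 at 90.5% and 71.7%. The ES values stand for an estimated 3 and 2 reads.

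Lum encodes lumican, a keratan sulfate proteoglycan known for the transparency of the cornea. It was listed at 0.0305 and 0 RPKM in ES cells (an estimated 1 and 0 reads), and was at 5.26 and 10.03 in the 3F+IL6 pair, 3.33 and 2.94 in the 4F pair, and 3.91 and 3.59 in MEF. The order was that of Dcn: both 3F+IL6 clones above both MEF libraries, both 4F clones below. The percents of the MEF mean were 141% and 268% in the 3F+IL6 pair and 88.9% and 78.5% in the 4F pair. 3F+IL6 clone 2 stood apart, with 1.91 times the Lum level of clone 1 and 1.51 times its Dcn level.

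Prelp encodes a class II protein that binds collagen and heparan sulfate at basement membranes. It was listed at 0 in both ES libraries and reached 0.449 and 0.730 RPKM in the 3F+IL6 pair, 0.301 and 0.327 in the 4F pair, and 0.999 and 0.842 in MEF. Every clone was below both MEF libraries and above ES cells. The percents of MEF were 48.8% and 79.3% in the 3F+IL6 pair and 32.7% and 35.5% in the 4F pair. These values rest on an estimated 13 to 64 reads a library outside ES cells.

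Bgn encodes biglycan, the closest relative of decorin and a ligand of Toll-like receptors when released from the matrix. It was the most abundant of the 7 in every library. It was at 1.19 and 1.45 RPKM in ES cells, 104.9 and 145.5 in the 3F+IL6 pair, 101.9 and 88.1 in the 4F pair, and 1172 and 1147 in MEF. No group overlapped another, but 3F+IL6 clone 1 and 4F clone 1 were close to each other. How many of all genes kept the groups apart in this way was not counted. The percents of MEF were 9.04% and 12.5% in the 3F+IL6 pair and 8.78% and 7.59% in the 4F pair.

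Aspn encodes asporin, a class I protein with an aspartate-rich stretch that binds collagen and calcium. It was at 0.0805 and 0 RPKM in ES cells, 0.252 and 0.415 in the 3F+IL6 pair, 0.215 and 0.269 in the 4F pair, and 6.31 and 7.12 in MEF. The kinds of clone overlapped, and their percents of MEF ran from 3.19% to 6.18%. Ogn, osteoglycin, was at 0.0248 and 0.0521 RPKM in ES cells, 0.262 and 0.192 in the 3F+IL6 pair, 0.330 and 0.155 in the 4F pair, and 9.31 and 9.05 in MEF. Its kinds of clone overlapped as well, at 1.69% to 3.60% of MEF.

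Fmod encodes fibromodulin, which takes part in collagen fibril assembly in tendon. It was listed at 0 in both ES libraries and reached 0.103 and 0.146 RPKM in the 3F+IL6 pair, 0.117 and 0.193 in the 4F pair, and 8.41 and 8.27 in MEF. The clones were at 1.24% to 2.31% of MEF, with the kinds overlapping. Per clone, Aspn, Ogn and Fmod rest on an estimated 4 to 13 reads, so differences among clones in these genes were not detectable at this depth.

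**Figure D2:**
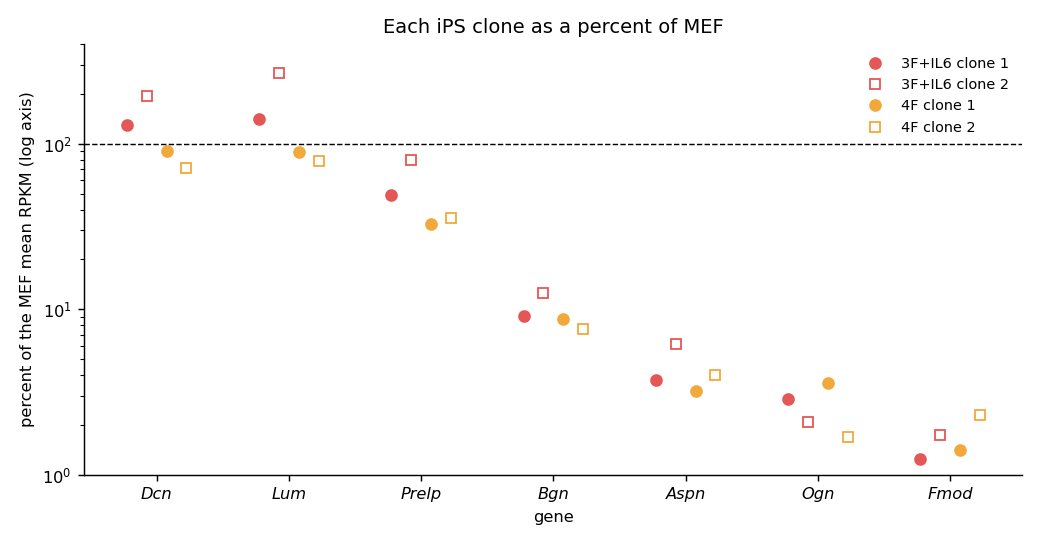
Each iPS clone as a percent of the mean of the 2 MEF libraries on a log axis, with 1 point per clone and a dashed line at 100%. Dcn and Lum lie at 71.7% to 268%, Prelp at 32.7% to 79.3%, Bgn at 7.59% to 12.5% and the other 3 genes at 1.24% to 6.18%.

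The 7 genes therefore differed widely in how much of the MEF level a single clone held. Within 3F+IL6 clone 2 the percent of MEF ran from 1.75% for Fmod to 268% for Lum, and within 4F clone 2 from 1.69% for Ogn to 78.5% for Lum. The median over the 7 genes was 9.04% and 12.5% in 3F+IL6 clones 1 and 2, and 8.78% and 7.59% in 4F clones 1 and 2. In each clone that median was the value of Bgn. The ES libraries were at 0% to 1.20% of MEF for all 7 genes.

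The make-up of the transcript pool differed between MEF and the clones. Bgn made up 94.9% and 94.8% of the summed RPKM of the 7 genes in MEF, 67.5% and 65.1% in the 3F+IL6 pair, and 74.3% and 75.6% in the 4F clones. Dcn made up 2.80% and 2.79% in MEF, 28.4% and 29.8% in the 3F+IL6 pair, and 22.6% and 21.1% in the 4F clones. The ratio of Dcn to Bgn was 0.0296 and 0.0294 in MEF, 0.421 and 0.458 in the 3F+IL6 pair, and 0.303 and 0.278 in the 4F clones. All 3 groups kept apart in this ratio, which does not depend on the scaling of a library. The ratio of Lum to Dcn moved less, at 0.113 and 0.106 in MEF, 0.119 and 0.151 in the 3F+IL6 pair, and 0.108 and 0.120 in the 4F clones.

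**Figure D3:**
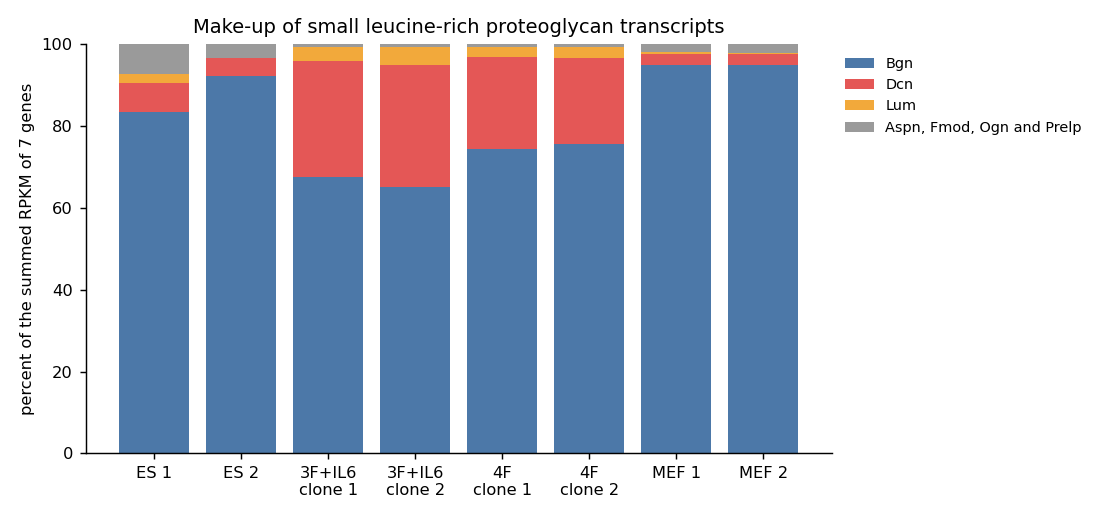
Share of the summed RPKM of the 7 genes held by Bgn, Dcn, Lum and the remaining 4 genes in each library, as stacked bars from 0 to 100%. Bgn holds 94.8% and 94.9% in MEF and 65.1% to 75.6% in the clones, where Dcn holds 21.1% to 29.8%. The ES bars stand on sums of only 1.43 and 1.58 RPKM.

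Not all neighbours had alike levels. Beside Dcn and Lum on chromosome 10, Kera (keratocan) was listed at 0 in all 8 libraries and Epyc (epiphycan) in the 6 ES and iPS libraries, with 0.0326 and 0.0319 RPKM in MEF. Between Aspn and Ogn on chromosome 13, Omd (osteomodulin) was at 0.605 and 0.650 RPKM in MEF, 0.256 and 0.556 in ES cells, 0.482 and 0.852 in the 3F+IL6 pair, and 1.09 and 0.804 in the 4F clones. Omd thus overlapped between MEF and the 3F+IL6 clones, whereas Aspn and Ogn on its flanks were at 1.69% to 6.18% of MEF in the clones. On chromosome 1, Prelp kept 32.7% to 79.3% and Fmod 1.24% to 2.31% of its MEF level. With quantile normalization Prelp was at 30.5% and 41.6% in 3F+IL6 clones 1 and 2 and 19.7% and 20.3% in 4F clones 1 and 2, and Fmod at 0.943% to 1.61%. In 3F+IL6 clone 2 that setting gave 3.87% for Aspn and 1.21% for Ogn.

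The fibroblast markers, 3 of which are collagen genes also listed among the binding partners below, were mostly below their MEF level in the clones. Of the 18 markers, 0 were listed at 0 in any clone and 1 was under 1 RPKM in each clone. Their median percent of MEF was 7.66% and 12.04% in 3F+IL6 clones 1 and 2 and 8.69% and 7.30% in 4F clones 1 and 2, close to the values of Bgn. They ran from Thy1, a surface glycoprotein, at 2.15% and 3.11% in the 3F+IL6 pair and 2.25% and 2.14% in the 4F pair, to the matrix glycoprotein gene Fbln1 at 168%, 145%, 157% and 130% in the same order. Fbln1 was the single marker above 100% in the clones, and it was also at 47.1% and 49.3% of MEF in ES cells. Dcn and Lum stood above 17 of the 18 markers in 4F clones 1 and 2 and in 3F+IL6 clone 1, and above all 18 in 3F+IL6 clone 2. Fmod stood below all 18 in 3F+IL6 clones 1 and 2 and 4F clone 1. The part of residual or admixed fibroblasts in these levels was not tested.

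Markers of other cell types were also read, and their sums in the clones were not all above those of ES cells. The sum of 6 smooth muscle markers was 62.1 to 75.2 RPKM in the clones, 5812 and 5857 in MEF and 162 and 165 in ES cells. The sum of 6 chondrocyte markers was 6.64 to 7.17 RPKM in the clones, 8.87 and 9.31 in MEF, and 2.18 and 2.29 in ES cells. Among them Col2a1 was at 3.36 to 4.52 RPKM in the clones and 5.02 and 5.17 in MEF, Acan at 1.07 to 1.30 and 0.526 and 0.687, Matn1 at 0.769 to 1.82 and listed at 0, Sox9 at 0.261 to 0.766 and 3.14 and 3.25, and Hapln1 and Col9a1 under 0.05 RPKM in each clone. The sum of 5 endothelial markers was 13.8 to 26.4 RPKM in the clones, 2.18 and 2.08 in MEF and 22.9 and 23.7 in ES cells. In each ES and iPS library 2 of these markers were above 100% of MEF, Pecam1 the most, and 3 were under 1 RPKM. Kdr was below MEF, with log2 differences of −1.35 in 3F+IL6 and −1.39 in 4F clones. The sum of 5 macrophage markers was 21.997 to 35.5 RPKM in the clones, 3.42 and 3.79 in MEF and 13.1 and 14.8 in ES cells. Most of that sum was Cd68, at 20.8 to 34.4 RPKM in the clones and 2.73 and 2.84 in MEF. Emr1 was at 0.460 to 1.003 RPKM in the clones and 0.0512 and 0.0835 in MEF, Csf1r and Ptprc were under 0.2 RPKM in each clone, and Aif1 was listed at 0 in all 8 libraries. The part of any such cells in the levels of the 7 genes was not tested.

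To set the 7 genes beside others of the same kind, genes with a mean of at least 3 RPKM in MEF and an ES mean under 5% of it were taken, limits chosen after the values were seen. There were 597, among them 6 of the 7 genes, Prelp being too low. Their median was 6.28% and 9.63% of MEF in 3F+IL6 clones 1 and 2 and 5.89% and 5.48% in 4F clones 1 and 2. Over 100% of MEF were 21 and 24 of the 597 in the 3F+IL6 pair and 16 and 15 in the 4F pair. Dcn stood at the 97.2 and 97.7 percentile of these genes in the 3F+IL6 clones and at the 96.8 and 95.98 in the 4F clones, and Lum at 97.99, 98.8, 96.6 and 96.3 in the same order. Bgn stood at the 59.6 to 63.1 percentile, Aspn at the 31.99 to 39.5, Ogn at the 11.1 to 35.5 and Fmod at the 9.21 to 23.95.

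**Figure D4:**
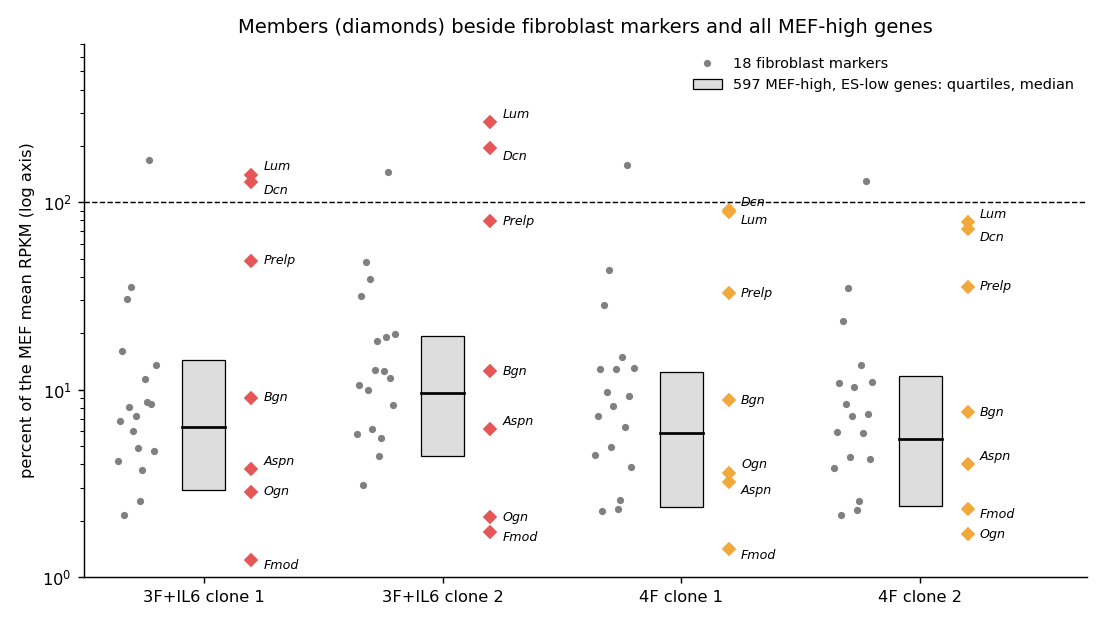
Percent of the MEF mean in each clone on a log axis for the 7 genes (diamonds), the 18 fibroblast markers (dots) and the 597 MEF-high, ES-low genes (box from the lower to the upper quartile, line at the median). Dcn and Lum lie far above the box, Bgn lies inside it and Fmod below it in each clone.

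The genes whose pattern was most like that of Dcn, by the root mean square difference in log2(RPKM + 1) relative to MEF over the 6 ES and iPS libraries, were Mmp3 (0.44), Ifi27l1 (0.54), B2m (0.65), Ephx1 (0.83) and Ccl7 (0.87). They came from 3757 other genes with a mean of at least 20 RPKM in MEF. Mmp3, the stromelysin gene, was at 177% and 299% of MEF in the 3F+IL6 pair and 96.9% and 87.4% in the 4F pair. The genes most like Bgn were Fbln2 (0.25), Col1a2 (0.44), Lox (0.60), Col1a1 (0.85) and Mgp (1.03). Fbln2, a fibulin gene, was at 8.41% and 11.5% of MEF in the 3F+IL6 pair and 9.24% and 7.38% in the 4F pair. Collagen I genes thus appeared among the nearest to Bgn and not among those to Dcn. The measure includes the ES libraries, where a gene near 0 can fall only as far as its MEF level allows. In ES against MEF the log2 difference was −5.02 for Dcn and −8.88 for Col1a1, so the MEF level of a gene enters this likeness.

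Over all genes, limma fitted log2(RPKM + 1) in the 8 libraries, and a gene was called at a Benjamini-Hochberg adjusted p under 0.05. Since the 7 genes were chosen with these contrasts known, their counts support nothing. In 3F+IL6 against MEF, limma called 2 of the 6 tested members higher (Dcn and Lum), where 49.4% of all 13200 genes were called higher, and 4 lower, where 32.6% were. In 4F against MEF it called 0 higher (49.2% of all genes) and 4 lower (34.4%). There 4 of the 6 members had an unadjusted p under 0.05, as did 84.4% of all genes. In ES against MEF limma called 0 higher (49.7%) and 6 lower (32%). The median log2 difference of the 6 members was −2.79, −2.82 and −3.26 in these contrasts, and that of all genes 0.26, 0.25 and 0.27. Adding 1 to values near 0 limits how far Aspn, Ogn and Fmod can fall, and with them these medians. Bgn was at −3.22, −3.60 and −8.97 in the same order. The Dcn and Lum differences from MEF in 3F+IL6 were 0.65 (SE 0.19) and 0.81 (SE 0.24). Both calls were lost with no filter on low values and without MEF 2 (then 0.63 and 0.76), and the Lum call also in a fit limited to these 4 libraries.

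Against ES cells, limma called 4 of the 6 members higher in 3F+IL6 clones (33.1% of all genes were called higher) and 0 lower (30.3%), and 3 higher in 4F clones (33.7%) and 0 lower (33.5%). Bgn was higher by 5.75 (SE 0.15) in 3F+IL6 and 5.37 (SE 0.15) in 4F clones, Dcn by 5.67 (SE 0.19) and 4.72 (SE 0.19), and Lum by 3.03 (SE 0.24) and 2.03 (SE 0.24). These contrasts share the ES libraries, as the previous ones share the MEF libraries. Aspn was the fourth call in 3F+IL6, at 0.36 (SE 0.11), and it was lost with quantile normalization (0.08), without ES 1 (0.41), ES 2 (0.30) or 3F+IL6 clone 2 (0.27). With a pseudocount of 0.1 limma called all 6 in each kind of clone.

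Between the kinds of clone, limma called 0 of the 6 members, where 0.773% of all genes were called higher in 3F+IL6 and 0.568% lower; 3 of the 6 had an unadjusted p under 0.05, as did 3198 (24.2%) of all genes. The log2 differences, 3F+IL6 minus 4F, were 1.01 for Lum (SE 0.24, 95% interval 0.45 to 1.57), 0.95 for Dcn (SE 0.19, 0.50 to 1.40) and 0.38 for Bgn (SE 0.15, 0.02 to 0.74), with intervals not adjusted for the number of genes. Aspn was at 0.10 (−0.15 to 0.35), Ogn at −0.02 (−0.25 to 0.22) and Fmod at −0.04 (−0.24 to 0.16). These genes were near 0 RPKM in the clones, where adding 1 shrinks differences, so the narrow intervals do not show equal levels. On the RPKM scale the 3F+IL6 mean was 2.44 times the 4F mean for Lum, 1.996 times for Dcn, 1.88 times for Prelp and 1.32 times for Bgn. The lower of the 3F+IL6 clones was above the higher of the 4F clones in each of these 4 genes. How many of all genes had this order was not counted, so it is not read as a trait of these genes. For Aspn, Ogn and Fmod, whose clones overlapped, the ratios of the means were 1.38, 0.93 and 0.80. Without 3F+IL6 clone 1 the differences were 1.42 for Lum and 1.24 for Dcn, and without clone 2 they were 0.60 and 0.66. The Bgn difference was 0.61 without clone 1 and 0.15 without clone 2. Each of these fits holds a single 3F+IL6 clone, so the gap between the 3F+IL6 clones does not enter the spread in either.

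**Figure D5:**
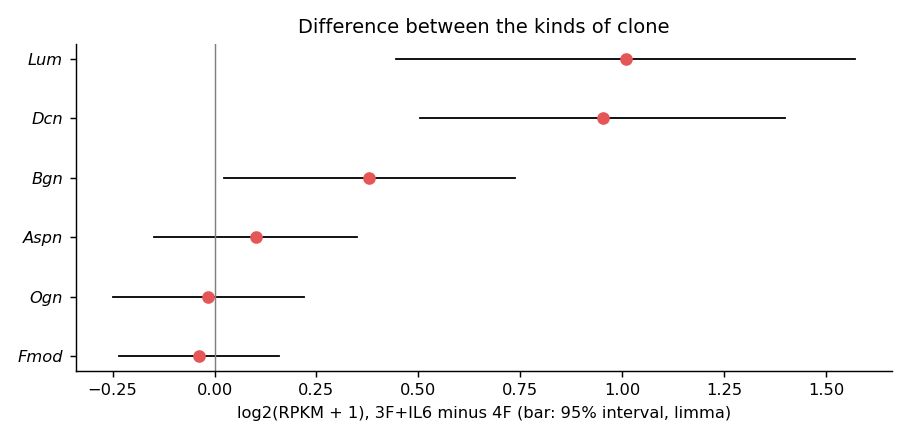
Difference in log2(RPKM + 1) between 3F+IL6 and 4F clones for the 6 genes tested, with the 95% interval from limma, 2 clones per kind. The intervals of Lum, Dcn and Bgn lie above 0 and those of Aspn, Ogn and Fmod cross it. Aspn, Ogn and Fmod are near 0 RPKM in the clones, where adding 1 shrinks differences.

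Other measures moved with this difference. Of the 18 fibroblast markers, 15 had a higher mean in 3F+IL6 than in 4F clones, with a median ratio of 1.30, and of the 586 MEF-high, ES-low genes with a value in 4F clones 490 did, with a median ratio of 1.38. Within 3F+IL6, clone 2 was above clone 1 in 6 of the 7 members (median ratio 1.51) and in 17 of the 18 markers (median ratio 1.47). It was also above clone 1 in 476 of the 583 MEF-high, ES-low genes with a value in clone 1 (median ratio 1.46). Rn45s, Rpph1 and Rmrp, transcribed without a poly-A tail, together were at 64.9 and 60.8 RPKM in the 3F+IL6 pair and 610.4 and 596 in the 4F pair. The ES duplicates were at 89.8 and 704 RPKM for these RNAs. In MEF they were at 46.5 and 267 RPKM, while Dcn there was 34.7 and 33.7. The part of these measures in the difference between the kinds of clone was not tested.

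Of 11 other members of the family, 4 passed the filter on low values. Optc, Podn and Podnl1 reached 1 RPKM in MEF alone, so that they had to be lower elsewhere, and only Tsku could have come out otherwise. Tsku (tsukushi), a secreted inhibitor of BMP and other signals, was at 20.2 ± 0.116 RPKM (SD, n = 2) in MEF, 4.39 ± 0.414 in 3F+IL6, 3.96 ± 0.0557 in 4F and 2.44 ± 0.261 in ES cells. Its log2 difference from MEF was −1.98 (SE 0.09; limma adjusted p = 1.3e-06) in 3F+IL6 and −2.10 (SE 0.09; adjusted p = 9.2e-07) in 4F clones. Podn (−0.97 in each kind of clone), Podnl1 (−1.65 and −1.68) and Optc (−1.04 and −1.001) were lower by the filter's own construction. Chad, Chadl, Nyx, Ecm2, Omd, Epyc and Kera did not pass the filter, with levels of at most 1.09 RPKM in any library. Between the kinds of clone limma called 0 of the 4 (0.773% of all genes higher and 0.568% lower). Of the 4, 0 had an unadjusted p under 0.05 (24.2% of all genes).

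Enzymes that build and sulfate the glycosaminoglycan chains were mostly lower outside MEF. Of 34 listed, 33 were tested, and limma called 25 lower and 4 higher than MEF in 3F+IL6 clones, where 32.6% of all genes were called lower and 49.4% higher. The numbers were the same in 4F clones (34.4% and 49.2% of all genes), and 25 were lower and 6 higher in ES cells (32% and 49.7%). Among the 33, Papss2 and Chsy3 passed the filter through MEF alone, and B3gnt7, Chst3 and Chst5 without MEF, so the filter itself favoured a direction for these 5. Papss2, which makes the sulfate donor, was lower by the filter's own construction. It fell by 3.09 in 3F+IL6 and by 3.42 in 4F, from 11.1 ± 0.514 RPKM in MEF to 0.429 ± 0.147 and 0.134 ± 0.00609. Ugdh, which makes the glucuronate precursor, fell by 1.96 and 2.08, and the chondroitin sulfotransferase gene Chst11 by 2.58 and 2.64. The keratan sulfate chain enzyme gene B3gnt7 rose by 4.35 and 4.04, from 0.169 ± 0.0874 RPKM in MEF to 22.8 ± 2.4 and 18.2 ± 0.93, and was at 58.5 ± 0.559 in ES cells. Against ES cells 13 enzymes were higher and 10 lower in 3F+IL6 (33.1% and 30.3% of all genes), and 11 and 13 in 4F clones (33.7% and 33.5%), shares near those of all genes. Dse, the epimerase of dermatan sulfate, fell by 1.15 and 1.30 there. Between the kinds of clone limma called 0 (0.773% of all genes higher and 0.568% lower). Of the 33, 11 had an unadjusted p under 0.05 (24.2% of all genes).

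Of 27 core proteins of other proteoglycans, 22 were tested, and limma called 9 higher and 13 lower than MEF in 3F+IL6 (49.4% and 32.6% of all genes), 9 and 12 in 4F (49.2% and 34.4%), and 5 and 15 in ES cells (49.7% and 32%). Gpc6, Cspg4 and Esm1 passed the filter through MEF alone, and Acan, Ncan, Srgn, Spock2 and Prg4 without MEF, so the filter itself favoured a direction for these 8. Cspg4 (NG2), lower by the filter's own construction, was at 27.9 ± 0.556 RPKM in MEF and 0.275 ± 0.0937 in 3F+IL6 clones, a log2 difference of −4.50. The hyaluronan receptor gene Cd44 had a log2 difference of −5.75 in 3F+IL6 and −6.35 in 4F clones, while Col18a1, a basement membrane collagen with heparan sulfate chains, was higher by 2.75 and 2.53. Against ES cells 13 were higher and 2 lower in 3F+IL6 (33.1% and 30.3% of all genes), and 14 and 3 in 4F (33.7% and 33.5%). Among the higher were the syndecan genes Sdc1 (2.05 and 2.15), Sdc2 (2.74 and 2.39) and Sdc3 (1.94 and 1.73) and the glypican gene Gpc3 (1.99 and 1.89). Between the kinds of clone limma called 0 (0.773% of all genes higher and 0.568% lower). Of the 22, 7 had an unadjusted p under 0.05 (24.2% of all genes).

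Collagens, growth factors, receptors and proteases that bind or process these proteins were nearly all lower than in MEF. Of 31 listed, 28 were tested, and limma called 25 lower and 1 higher in 3F+IL6 (32.6% and 49.4% of all genes), 26 and 1 in 4F (34.4% and 49.2%), and 27 and 1 in ES cells (32% and 49.7%). Col11a1, Tgfb2, Tlr4 and Tll1 passed the filter through MEF alone, and Tlr2 without MEF, so the filter itself favoured a direction for these genes. Tgfb3, a TGF-beta ligand gene, was at 145 ± 1.89 RPKM in MEF, 1.3 ± 0.301 in 3F+IL6 and 0.817 ± 0.171 in 4F clones (log2 differences of −5.99 and −6.33). Tll1, a tolloid protease gene, was at −5.10 and −5.28, Col12a1 at −5.05 and −5.02, and Col1a1 at −4.33 and −4.57. Against ES cells 19 were higher and 2 lower in 3F+IL6 (33.1% and 30.3% of all genes), and 17 and 3 in 4F (33.7% and 33.5%), with Col1a1 at 4.55 and 4.31 and Col1a2 at 4.82 and 4.45. Between the kinds of clone limma called 0 (0.773% of all genes higher and 0.568% lower). Of the 28, 5 had an unadjusted p under 0.05 (24.2% of all genes). In these contrasts with MEF the collagen I genes were at 3.80% to 10.6% of MEF in the clones, against 71.7% to 195% for Dcn, whose protein binds collagen I.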

How the data were processed

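Each library has 1 deposited table of gene symbols and values. The tables do not state their unit. The deposited numbers were taken as RPKM made by the authors, since low values multiplied by transcript length fell on whole multiples of 1 amount per library. The authors aligned to mm10, per the labels. The aligner, counter and gene models are not given in the sources used, and how reads shared between genes were counted is unknown. A row holding a second header was dropped. Per the labels' protocols, libraries came from 500 ng of total RNA with oligo-dT selection and were read as 50 bp reads.

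Log2(RPKM + 1) was fitted in 1 model of 4 groups of 2 with limma 3.58.1 in R 4.3.3 (trended variance, no block), over 13200 genes with at least 1 RPKM in at least 2 libraries, and adjusted over all of them (threshold 0.05). The replicates are separate clones or biological replicates per the labels. Depth was estimated from that amount, and read numbers from it and a GENCODE M21 transcript length, so both are approximate. Percent of MEF used RPKM with no pseudocount. The members and gene lists were chosen with earlier results of these data known. Named genes are the 7 members, the other family genes, up to 4 genes with the smallest p per other list and contrast, the markers, and the 5 nearest patterns; Isg15, Rn45s, Rpph1, Rmrp and genes that passed the filter through MEF alone or without MEF were named after their values were seen. Acpl2 in the files is Pxylp1 of the enzyme list, by RefSeq synonym. Alternatives were other pseudocounts, filters, scalings, a fit without trend, fits of fewer samples, a replicate block and leaving out each library. The fit was tested on simulated data.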

Additional observations from a re-analysis of the deposited data

Results flagged for a closer look

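Dcn (log2 difference 0.95, 3F+IL6 minus 4F) and Lum (1.01) stood out because both 3F+IL6 clones were above both MEF libraries and both 4F clones below both. The fit of the difference itself called neither. Over all 13200 genes, 73 (0.553%) had this order, and of the 597 MEF-high, ES-low genes 4 did, the others being Isg15 and Mmp3. Isg15, an interferon-induced gene chosen here after its values were seen, was at 11.4 and 21.2 RPKM in 3F+IL6, 4.34 and 5.44 in 4F, and 9.998 and 10.16 in MEF. With values divided by the library sum, Dcn and Lum of 4F clone 1 were at 75.02% and 73.7% of MEF, and those of 4F clone 2 at 60.7% and 66.5%. In that setting Dcn and Lum of 3F+IL6 clone 1 came down to 109% and 119% of MEF, and those of 3F+IL6 clone 2 to 169% and 233%.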

How the results depend on the processing

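With a mean of at least 5 RPKM only 2 members were tested, and limma called 2 in 3F+IL6 against MEF, 1 in 4F against MEF, 2 in ES against MEF and 2 in 3F+IL6 against ES; the calls summed over the 4 other gene lists and all 6 contrasts were 243 in place of 368. Leaving out a MEF library left 3 members tested, since the filter then lacks a second MEF value. Over the single libraries left out, the count ran from 1 to 6 in 3F+IL6 against MEF, 1 to 5 in 4F against MEF, 3 to 6 in ES against MEF, 3 to 6 in 4F against ES and 0 to 3 in 3F+IL6 against 4F; the remaining library of a group is there assumed to vary like the other groups. The shares of all genes called without a single library were not counted, so these ranges are not read as results about the members. In 4F against ES the member count was 6 with a pseudocount of 0.1, without trend or in a fit limited to the 4 libraries of the contrast. It was 5 with no filter or with median centring. The cause of these gains was not tested. The median percent of MEF over the members was 7.28% and 6.43% in 4F clones 1 and 2 with values divided by the library sum, and with quantile normalization 6.40% and 5.58% there and 9.02% in 3F+IL6 clone 2. With the replicate number as a block, the 6 member counts were 6, 4, 6, 4, 3 and 0, as without it and the list count was 367; the numbers share only a name (correlations of deviations between same-numbered libraries from −0.06 to 0.21). No called difference of a member changed sign in the settings run. Groups of 2 limit the precision of every value.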
